A study of Mus musculus with 2 samples.

Results

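Mir182, Mir96 and Mir183 are the hairpins of the miR-183 cluster, which lies on the minus strand of mouse chromosome 6. They were found in the gene tables by Ensembl ID and their GENCODE M21 symbol, and all 3 are among the 1973 miRNA genes listed. Small RNA had been sequenced from hindbrain of B6NCrl mouse embryos at 12.5 days, with males and females pooled and no treatment or mutation named in the labels. The series has 1 group of 2 libraries, replicate 2 from a pool of 88 embryos and replicate 1 from a pool of 120, so it holds no contrast between conditions. Pools average over many embryos, and a dissected region holds several cell types, so fewer cells of a type and less RNA per cell cannot be told apart.

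MicroRNAs (miRNAs) are short RNAs cut by Drosha and Dicer from hairpins in longer transcripts, and they repress messenger RNAs that pair with their seed, bases 2 to 8. The hairpins of this cluster are processed from a shared primary transcript. They are best known from sensory cells such as hair cells of the inner ear, photoreceptors, olfactory neurons and neurons of sensory ganglia. Changes in the seed of miR-96 cause progressive hearing loss in mice and people, and mice that lack the cluster have retinal defects.

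The mature miRNAs of both arms of each hairpin are shown because the tables sum the arms, so any of these sequences can lie behind a count. They are from RefSeq on GRCm38.p6, which had entries for all 3 hairpins, and are written 5′ to 3′ with the seed in capitals.
miR-182-5p: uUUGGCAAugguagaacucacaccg
miR-96-5p: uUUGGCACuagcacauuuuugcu
miR-183-5p: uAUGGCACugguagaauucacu
miR-182-3p: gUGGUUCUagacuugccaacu
miR-96-3p: cAAUCAUGuguagugccaauau
miR-183-3p: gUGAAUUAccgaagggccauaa

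The 5p miRNAs resemble each other but none has the same seed as another. Counted from 1 at the 5′ end, the seeds of miR-182-5p and miR-96-5p differ by A8C alone, those of miR-183-5p and miR-96-5p by A2U alone, and those of miR-182-5p and miR-183-5p by U2A and A8C. Over the whole aligned length, seed included, the likeness runs the other way. There miR-182-5p matches miR-183-5p at 18 of 22 aligned bases, and the run UGGUAGAA starts at base 9 of both, just after the seed. miR-182-5p matches miR-96-5p at 12 of 23 bases, and miR-183-5p matches miR-96-5p at 13 of 22. The seeds of the 3p miRNAs differ from each other and from those of the 5p miRNAs. Among the 1738 mature mouse miRNAs of the RefSeq table, 3 carry UUGGCA at bases 2 to 7, namely miR-182-5p, miR-96-5p and miR-1271-5p, and only miR-183-5p carries AUGGCA there.

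The hairpins are printed with both mature miRNAs in capitals, to show their place in the precursors from which reads were counted.
Mir182: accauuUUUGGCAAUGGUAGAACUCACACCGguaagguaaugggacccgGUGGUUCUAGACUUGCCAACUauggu
Mir96: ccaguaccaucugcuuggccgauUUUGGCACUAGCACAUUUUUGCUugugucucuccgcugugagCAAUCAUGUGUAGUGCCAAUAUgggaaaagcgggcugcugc
Mir183: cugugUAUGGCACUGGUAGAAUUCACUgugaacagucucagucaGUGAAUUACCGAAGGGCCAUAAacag

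Mir183 (ENSMUSG00000065619.2) lies at chr6:30169668-30169737 on GRCm38, the assembly also called mm10, and its hairpin is 70 bases long. Mir96 (ENSMUSG00000065586.1), of 106 bases, lies at chr6:30169446-30169551, and Mir182 (ENSMUSG00000076361.1), of 75 bases, at chr6:30165918-30165992. In the direction of transcription Mir183 is followed after 116 bases by Mir96, and Mir182 comes 3453 bases further on. The cluster spans 3820 bases, and GENCODE M21 places no other gene within this span. It is therefore annotated as intergenic, with Rncr4, a long noncoding RNA known from retina, 3155 bases away on the plus strand. The nearest protein-coding genes are Nrf1, a transcription factor of mitochondrial genes, 12459 bases away, and Ube2h, a ubiquitin-conjugating enzyme, 41551 bases away. None of the 3 hairpins shares an identical run of 20 bases with another miRNA hairpin. Such a run is present in 923 of the 1973 genes, and reads that match several positions are counted for no gene.

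All 3 hairpins were abundant in the hindbrain, in the order Mir182, Mir183, Mir96, and this order was the same in both libraries. Levels are given as CPM, the counts of a gene per 1000000 own-strand counts of all miRNA genes, a total that came to 3946444 in replicate 2 and 2764276 in replicate 1. Mir182 had 9776 CPM in replicate 2, from 38579 counts, and 11541 CPM in replicate 1, from 31902 counts, or 10658 ± 1248 CPM (SD, n = 2). Mir183 had 5253 CPM in replicate 2, from 20729 counts, and 7585 CPM in replicate 1, from 20967 counts, or 6419 ± 1649 CPM. Mir96 had 1994 CPM in replicate 2, from 7868 counts, and 3003 CPM in replicate 1, from 8300 counts, or 2498 ± 713 CPM. No library's value of one hairpin reached the range of another, so the levels of the 3 were apart by more than the spread between the replicates. A read is a whole small RNA, of under 30 bases per the labels, so counts were not divided by length. Per base of hairpin the order was the same, at 142 ± 16.6 CPM per base for Mir182, 91.7 ± 23.6 CPM per base for Mir183 and 23.6 ± 6.73 CPM per base for Mir96 (SD, n = 2).

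**Figure D1:**
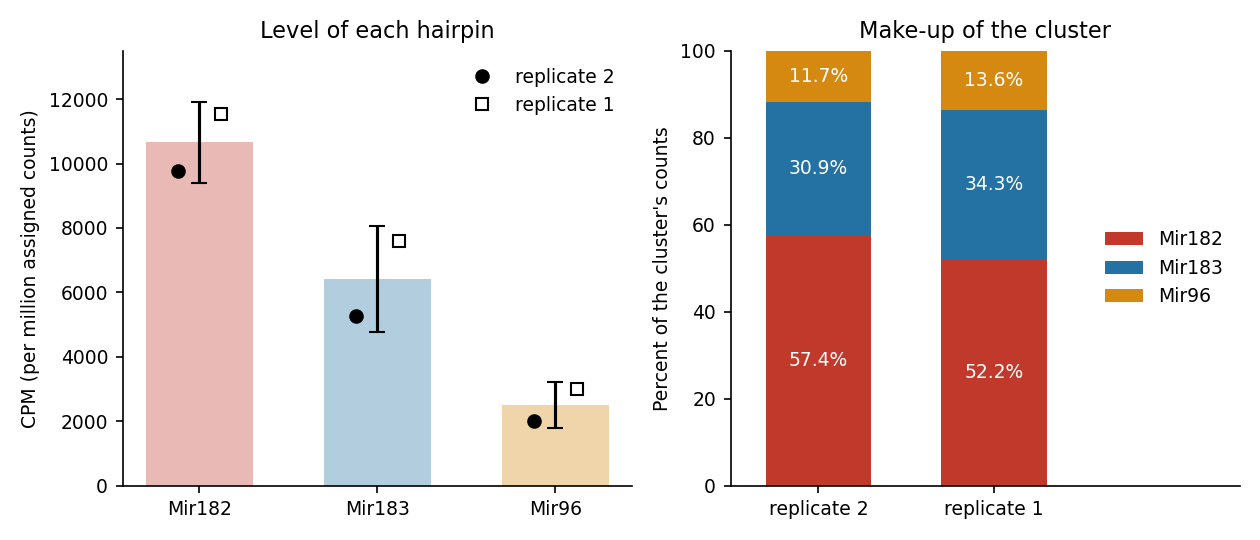
Left, level of each hairpin in CPM, with bars for the mean, error bars for the SD (n = 2), filled circles for replicate 2 and open squares for replicate 1. Right, percent of the cluster's counts from each hairpin in each library. Replicate 2 lies below replicate 1 for every hairpin, and Mir182 makes up 57.4% of the cluster in replicate 2 and 52.2% in replicate 1.

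Together the hairpins held 1.70% of the assigned counts in replicate 2 (95% interval 1.69% to 1.72%, Clopper-Pearson) and 2.21% in replicate 1 (2.20% to 2.23%). These intervals, and all others given here, cover counting error only. They treat each read as an independent molecule, which reads without molecular identifiers are not, so they can be too narrow even for that error. The shares of the libraries lie far apart on this scale, so counting error is the smaller part of the uncertainty and the spread between the libraries is the larger one. Each pool gave 1 library, so differences between pools and between library preparations cannot be told apart.

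The hairpins differed in level within each library. Mir182 exceeded Mir183 by 1.86-fold in replicate 2 (95% interval 1.83 to 1.89) and by 1.52-fold in replicate 1 (1.495 to 1.55). Mir182 exceeded Mir96 by 4.90-fold in replicate 2 (4.79 to 5.02) and by 3.84-fold in replicate 1 (3.75 to 3.94). Both ratios with Mir182 were higher in replicate 2, by 1.22-fold against Mir183 and by 1.28-fold against Mir96, and their intervals did not overlap between the libraries. Mir183 exceeded Mir96 by 2.63-fold in replicate 2 (2.57 to 2.70) and by 2.53-fold in replicate 1 (2.46 to 2.59), where the intervals did overlap. In these 2 libraries Mir183 and Mir96 had nearly the same proportion to each other, while the ratios with Mir182 shifted by more than counting error. Counting error leaves out the spread between libraries, and larger differences were seen between neighbouring hairpins of other loci, as given below. Whether the shift of Mir182 goes with the distance between the hairpins was not tested. No p-value is given for an order of hairpins, since a two-sided sign-flip test over 2 libraries cannot go below 0.5. Small RNA libraries are known to take up some sequences better than others, which limits a comparison between hairpins more than that of a hairpin between libraries.

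As shares of the cluster, Mir182 made up 57.4% in replicate 2 (57.1% to 57.8%) and 52.2% in replicate 1 (51.8% to 52.6%). Mir183 made up 30.9% in replicate 2 (30.5% to 31.2%) and 34.3% in replicate 1 (33.9% to 34.7%). Mir96 made up 11.7% in replicate 2 (11.47% to 11.96%) and 13.6% in replicate 1 (13.3% to 13.8%). Mir182 was therefore the majority of the cluster in each pool.

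Among all miRNA genes the hairpins ranked 22nd (Mir182), 39th (Mir183) and 68th (Mir96) by mean CPM. Mir182 ranked 23rd in replicate 2 and 20th in replicate 1, Mir183 ranked 44th in replicate 2 and 33rd in replicate 1, and Mir96 ranked 73rd in replicate 2 and 64th in replicate 1. Mir106b, of a proliferation-linked cluster, stood just above Mir182 at 10709 ± 120 CPM, and Mir23b just below it at 10565 ± 1444 CPM. Mir369, of the imprinted Dlk1-Dio3 region, stood just above Mir183 at 6450 ± 459 CPM, and Mir449a, known from multiciliated cells, just below it at 6256 ± 952 CPM. Mir16-1, a regulator of the cell cycle, stood just above Mir96 at 2514 ± 245 CPM, and Mir381, also of the Dlk1-Dio3 region, just below it at 2476 ± 180 CPM. The ranges of all 6 neighbours overlapped that of their hairpin, so these places do not hold beyond the spread. Mir23b and Mir16-1 share sequence with other hairpins, which can lower their counts. In all, 17 genes exceeded Mir182 with no overlap between libraries and 10 overlapped it. The same numbers were 28 and 18 for Mir183, and 59 and 14 for Mir96.

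miRNAs that share bases 2 to 7 with the cluster but come from elsewhere added almost nothing. miR-1271-5p, from Gm24195 on chromosome 13, has the same bases 2 to 8 as miR-96-5p. It is shown for comparison with the seed of miR-96-5p above.
miR-1271-5p: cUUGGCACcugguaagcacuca
Gm24195 had 1 count in each library, which is under the 3 counts that a count of 0 allows. By reads placed at a single position, Mir182 and Mir96 thus held nearly all counts of genes with UUGGCA at bases 2 to 7.

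The other miRNA genes near the cluster ranged from no counts to levels well above it. Within 1 Mb on chromosome 6 the tables list 5 of them. Mir335, in the imprinted gene Mest and 572 kb away, averaged 59015 ± 5121 CPM. Mir29a, 893 kb away, averaged 77.0 ± 6.75 CPM. Mir29b-1 beside it, which shares sequence with another hairpin, had 6 counts in replicate 2 and 4 in replicate 1. Gm26220 had 1 count in each library. Gm23049, which also shares sequence with another hairpin, had 0 in both, which does not show that its miRNA was absent. Mir335 was higher in replicate 2 by 0.18 on the log2 scale (adjusted exact binomial p = 2.43e-313) while the hairpins of the cluster were lower there.

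Every hairpin of the cluster was lower in replicate 2 than in replicate 1. The log2 ratio of replicate 2 over replicate 1, with 0.5 added to each count, was -0.24 for Mir182, -0.53 for Mir183 and -0.59 for Mir96. As plain ratios of CPM these are 0.847 (95% interval 0.835 to 0.860), 0.692 (0.679 to 0.706) and 0.664 (0.644 to 0.685), and the sum of the 3 had 0.769. Each gene with a mean of at least 10 counts was tested with a two-sided exact binomial test and Benjamini-Hochberg adjustment over all 393 such genes. The adjusted exact p was 7.68e-105 for Mir182, 1.03e-304 for Mir183 and 1.56e-147 for Mir96. None of the hairpins reached 2-fold, so 0 of 3 were called at an adjusted p under 0.05 with at least 2-fold, against 3.56% of all tested genes. The test compares the reads of these libraries, not conditions, and takes no account of the spread between pools. Without a minimum fold 3 of 3 were lower in replicate 2, against 26.5% of all tested genes and 44.8% of the 105 genes with at least 1000 CPM.

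Mir96 and Mir183 stood near the edge of the abundant genes in this difference, and Mir182 did not. Ordered from the lowest ratio of replicate 2 over replicate 1 among the 105 genes with at least 1000 CPM, Mir96 was 5th, Mir183 was 7th and Mir182 was 26th. The median log2 ratio of these 105 genes was -0.02 and the median of its size, without sign, was 0.17. The genes below Mir96 in this order were Mir200c (-1.39) and Mir429 (-1.12) of epithelia, Mir219a-2 (-0.61) of oligodendrocytes and Mir92b (-0.60), which is known from neural progenitors. Mirlet7d (-0.58) stood between Mir96 and Mir183. Mir219a-2 shares sequence with Mir219a-1. These 5 genes were named after their values were seen. Among all 393 tested genes, where low counts widen the spread, Mir96 was 31st, Mir183 was 37th and Mir182 was 110th from the lowest.

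**Figure D2:**
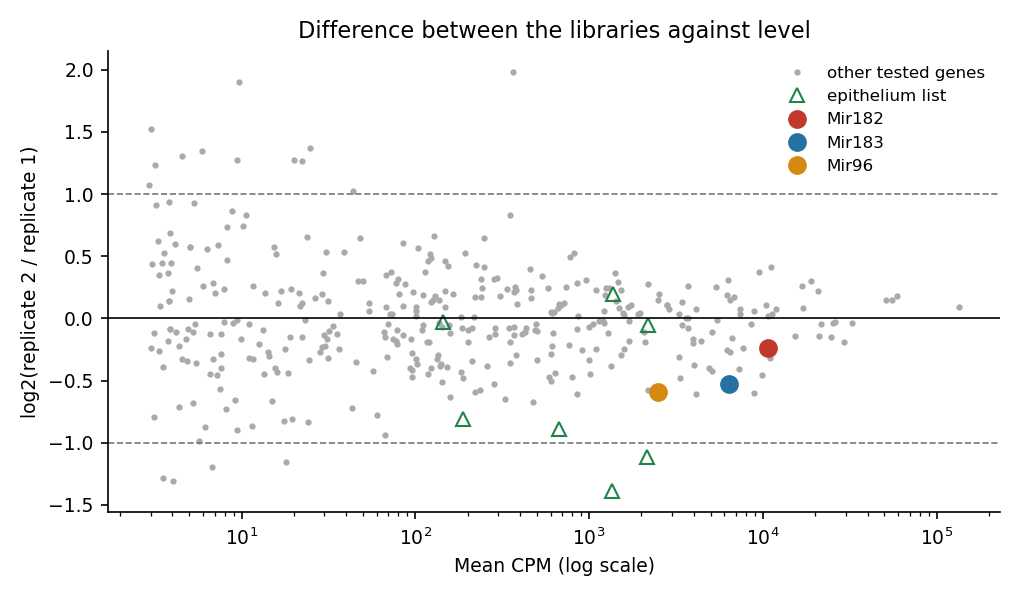
The log2 ratio of replicate 2 over replicate 1 against mean CPM (log scale) for the 393 tested genes, with dashed lines at 2-fold. Mir182, Mir183 and Mir96 lie below 0 at -0.24, -0.53 and -0.59, between the dashed lines, and 4 of the 7 epithelial miRNAs (open triangles) lie lower still.

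Outside the cluster, the 5 genes of at least 1000 CPM with the ratio most like that of its sum (-0.38 on the log2 scale) lie on other chromosomes. Mir15b (-0.38) and Mir22 (-0.38) were nearest, followed by Mir92-1 (-0.40), Mir744 (-0.41) and Mir125a (-0.42). The likeness is the distance between log2 ratios over 2 libraries only, at most 0.04 for these genes. Mir92-1 shares sequence with another hairpin.

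The closeness of Mir96 and Mir183 was set beside other neighbouring hairpins in a comparison chosen after the values were seen. Genes with a mean under 100 counts were left out first, so a pair can have a weaker hairpin between its members. Of the rest, genes next to each other on the same strand were paired where at most 5000 bases lay between them. This gave 85 pairs. The log2 ratios of Mir96 and Mir183 differed by 0.06, the 10th smallest of the 85, while those of Mir182 and Mir96 differed by 0.35, the 55th smallest. The median over all pairs was 0.23, with the middle 50% between 0.13 and 0.42. Among the 53 pairs in which neither hairpin shares sequence with another gene, the places were 6th and 37th and the median was again 0.23. Both pairs of the cluster thus lay within the values seen at other loci, which ran up to 1.09 for Mir429 and Mir200a.

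**Figure D3:**
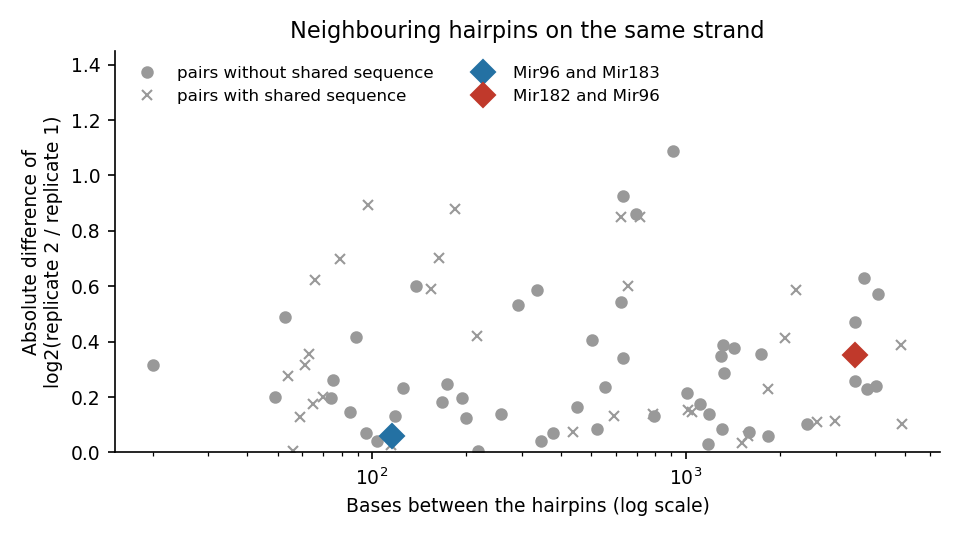
Absolute difference of log2 ratios between neighbouring hairpins on the same strand against the bases between them (log scale), 1 point for each of 85 pairs. Diamonds mark Mir96 and Mir183, 116 bases apart with a difference of 0.06, and Mir182 and Mir96, 3453 bases apart with a difference of 0.35.

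Marker miRNAs of other cell types also differed between the libraries, and the lists used here were chosen with earlier results of these data known. Without a minimum fold, 26.5% of all 393 tested genes were lower in replicate 2 and 25.2% were higher at an adjusted exact binomial p under 0.05. Among the 105 genes with at least 1000 CPM these shares were 44.8% and 40.0%, so passing without a minimum fold is common and a small difference can pass in an abundant gene. The epithelium list, miRNAs known from epithelial cells, had a summed level of 6470 CPM in replicate 2, against 9660 CPM in replicate 1, a ratio of 0.670 beside 0.769 for the miR-183 cluster. Of its 7 members, all tested, 4 were lower in replicate 2 at an adjusted exact binomial p under 0.05, against 26.5% of all tested genes, 1 was higher, against 25.2%, and 2 were not past the threshold. The lower ones were Mir200c (746 CPM in replicate 2, against 1959 CPM in replicate 1), Mir429, Mir200b and Mir141, with log2 ratios of -1.39, -1.12, -0.89 and -0.81. Mir205 was higher in replicate 2, at 0.20, while Mir203 and Mir200a had -0.05 and -0.03 and did not pass. The median log2 ratio of the list was -0.81, against -0.53 for the cluster and -0.04 for all tested genes. No member of the list was at 0. Its part in the difference of the cluster between the libraries was not tested.

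The Hox list, known from hindbrain and spinal cord, had a summed level of 42409 CPM in replicate 2 and 44608 CPM in replicate 1. Most of this came from Mir10a (26113 ± 330 CPM) and Mir10b (15264 ± 1037 CPM). With no other tissue in the series, how well the list marks hindbrain was not tested. Of its 6 genes 4 could be tested, and without a minimum fold 3 were lower in replicate 2, against 26.5% of all tested genes, and 1 was higher, against 25.2%. Mir10a, Mir10b and Mir615 were lower, with log2 ratios of -0.03, -0.14 and -0.19, and Mir196b was higher, at 0.53. Mir196a-2 had 6 counts in replicate 2 and 3 in replicate 1, and Mir196a-1 had 0 in both. Mir196a-1 and Mir196a-2 share sequence with other hairpins, which can lower their counts, so these values do not show that their miRNA was absent. The median log2 ratio of the list was -0.08, against -0.04 for all tested genes.

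The other lists are given by the same counts, without a minimum fold, and each is to be read against the 26.5% of all tested genes that were lower in replicate 2 and the 25.2% that were higher. Of the endocrine and sensory-associated list, 3 of 4 tested members were lower in replicate 2 and 1 was higher, and its most abundant members Mir375, Mir7-1 and Mir7b had log2 ratios of -0.29, -0.19 and 0.41; Mir7-1 shares sequence with another hairpin. In the neuronal list 2 of 13 tested members were lower and 7 higher. Its leading genes Mir137, Mir153 and Mir138-1 had 0.03, 0.29 and 0.40, where Mir137 did not pass, and 11 of its 15 genes share sequence. Neither member of the pigment epithelium and choroid plexus list passed, with 0.03 for Mir204 and 0.22 for Mir211.

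In the mesenchyme list 1 of 5 tested members was lower, Mir214 (-0.32), against 26.5% of all tested genes, and 3 were higher, against 25.2%, among them Mir140 (0.42) and Mir199b (0.53), which shares sequence with another hairpin. The striated muscle list had a summed level of 647 CPM in replicate 2, against 177 CPM in replicate 1, with 4 of 6 tested members higher and none lower. All 4 were higher by at least 2-fold, against 2.29% of all tested genes that were called higher at that fold. Mir206, Mir208b and Mir499 led it, with 1.98, 1.27 and 1.91. Mir206 made up most of the sum, with 579 CPM in replicate 2 and 146 CPM in replicate 1. Mir208b had only 125 counts in replicate 2 and 36 in replicate 1, and Mir499 had 61 and 11. Of the 10 genes listed for striated muscle 9 are in the data, and 4 share sequence with other hairpins. The part of these lists in the difference of the cluster was not tested. The tables hold miRNA genes alone, so protein markers of sensory cells were not measured, and which cells carried the cluster was not tested.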

How the data were processed

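The tables are whole-number counts of reads per miRNA gene, made by the authors from alignments to mm10 with GENCODE M4, per the text deposited with them; aligner, trimming and settings: not given in the sources used here. They have no header. The third column was read as the gene's own strand from the layout and its totals, and rows naming no gene were left out. Those rows took 16.2% (unmapped), 33.4% (several positions) and 3.72% (outside miRNA genes) of 8656439 reads in replicate 2, and 15.7%, 32.7% and 3.98% of 5947846 in replicate 1. Counts sum both arms. A count of 0 is bounded by 3 counts, 0.760 CPM in replicate 2 and 1.09 CPM in replicate 1.

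Symbols and coordinates came from GENCODE M21 on GRCm38 and matched 1894 of 1973 genes. Intervals are exact Clopper-Pearson at 95%. The binomial test across all genes averaging at least 10 counts used an expected share from the assigned totals; edgeR 4.0.16 and DESeq2 1.42.0 in R 4.3.3 gave only scaling factors and edgeR the dispersion, since 1 group leaves no contrast to fit. Tables and tests used Python 3.11.15, pandas 2.3.3 and SciPy 1.17.1. The test was checked on counts simulated with sampling noise alone, which leaves out the spread between libraries. The coefficient of variation between libraries from the common dispersion of edgeR was 17.4%, and their counts differed by more than sampling noise (chi-square 104 per degree of freedom), so they were kept as 2 samples. The labels name them as biological replicates under the same donor label.

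The members, the 7 lists and the tests were chosen with earlier results of these data known. Named are the 3 hairpins, their rank neighbours, chromosome 6 neighbours within 1 Mb, genes sharing bases 2 to 7, the 5 nearest ratios, all members of the epithelium and Hox lists and up to 3 leading members of the others. Alternatives covered the strand column, scaling, filters, minimum fold, pseudocounts and leaving out each library.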

Additional observations from a re-analysis of the deposited data

Results flagged for a closer look

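Mir183 had a few counts on the strand opposite to the gene, 10 in replicate 2 and 9 in replicate 1, which is above the limit of 3 counts in both libraries and lies outside the own-strand values reported. Mir182 had 4 such counts in replicate 2 and 3 in replicate 1, and Mir96 had 0 in both.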

How the results depend on the processing

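Mir182, Mir183 and Mir96 were lower in replicate 2 under all 13 alternatives, with log2 ratios from -0.27 to -0.21, from -0.56 to -0.50 and from -0.62 to -0.56. The filters on counts and the minimum fold cannot change the ratio of a gene, and the pseudocounts hardly move it at these counts. Taking both strands together added at most 10 counts to a hairpin in a library. The opposite strand held 2.35% of both-strand counts in replicate 2 and 2.38% in replicate 1, so this could hardly move the ratios either. Only the alternatives of scaling could therefore have changed this outcome. Without a minimum fold, values of -0.24, -0.53 and -0.59 were called, and with 1.5-fold only Mir96 was called, at -0.59. Genes called in all numbered 203 without a minimum fold, 39 with 1.5-fold and 4 among genes averaging at least 100 counts, against 14 in the report. Of all tallied reads the cluster held 0.902%, by construction less than of assigned counts. With both strands together the mean ratios between hairpins were 1.69 for Mir182 over Mir183, 4.37 for Mir182 over Mir96 and 2.58 for Mir183 over Mir96, the same to 2 decimals as on the own strand. In a single library they are that library's values in the report, and with 2 libraries this is no test of stability. No paired analysis was possible because the series has 1 group. With 2 libraries the spread between pools is poorly known. Leaving out a library gives no ratio between libraries, so that alternative was not run there.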
